A study of Mus musculus with 2 samples.

Results

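The genes described here are the NF-E2 related activators Nfe2, Nfe2l1 and Nfe2l2, the repressor Bach1, the small MAF partners Mafg, Mafk and Maff, the sensor Keap1 and the heme oxygenase genes Hmox1 and Hmox2. They were taken by name, after the Ensembl gene identifiers of the gene and transcript tables had been matched to gene symbols, and all 10 were found among 43346 Ensembl genes. The samples were 2 polyA RNA-seq libraries, sequenced from a single end, from MEL cells, a mouse erythroleukemia line grown as an immortalized culture. Both had received 2% dimethyl sulfoxide (DMSO) for 5 days, an agent that drives these cells toward hemoglobin synthesis, and no untreated library was analysed here, so the values are levels after treatment and not responses to it. The libraries are numbered as biological replicates 1 and 2 but carry the same biosample identifier, so the labels do not settle whether they came from separate cultures, and the spread between them may be technical.

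NFE2, NFE2L1 and NFE2L2 (NRF2) are cap'n'collar basic leucine zipper proteins that bind DNA as heterodimers with a small MAF protein, which has a DNA-binding zipper but no activation domain of its own. BACH1 competes for the same partners and sites as a repressor, and heme binding releases it from DNA and promotes its degradation. In erythroid cells NFE2 acts at the globin enhancers and at genes of heme synthesis, while NRF2 and BACH1 act in opposite directions on genes of iron storage, heme breakdown and the oxidative stress response.

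All 10 genes were at or above 1 TPM (the unit of level here, in which reads are scaled to transcript length and to the library) in both libraries, against 45.5% of the 21474 protein-coding genes in the tables. Nfe2 was the highest in each library, and Nfe2l1, Nfe2l2 and Bach1 were each at closely similar levels in the 2 libraries, whereas Hmox2 ranged from 12.4 to 73.8 TPM. The small MAF genes lay lower, with Maff last. The median of the mean levels was 34.4 TPM over the 10 genes, beside 0.600 TPM over all protein-coding genes and 15.5 TPM over those that reached 1 TPM in both libraries. Ordered by mean TPM over all transcripts, the genes ran Nfe2, Nfe2l1, Nfe2l2, Hmox2, Bach1, Keap1, Mafg, Hmox1, Mafk and Maff. Of the 9 pairs of neighbours in that order, only Nfe2 over Nfe2l1 and Mafk over Maff had ranges that did not overlap between libraries, and the other 7 pairs did not differ beyond their spread. On transcripts with known ends, 3 more of these pairs did not overlap, because Nfe2l1 (mean 20.4 TPM) and Hmox2 (mean 9.68 TPM) were then lower: Nfe2l1 with Nfe2l2, Nfe2l2 with Hmox2, and Hmox2 with Bach1. Reads of the other transcripts were left out there and not reassigned. In bulk RNA, fewer cells with a transcript and less of it per cell cannot be told apart.

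**Figure D1:**
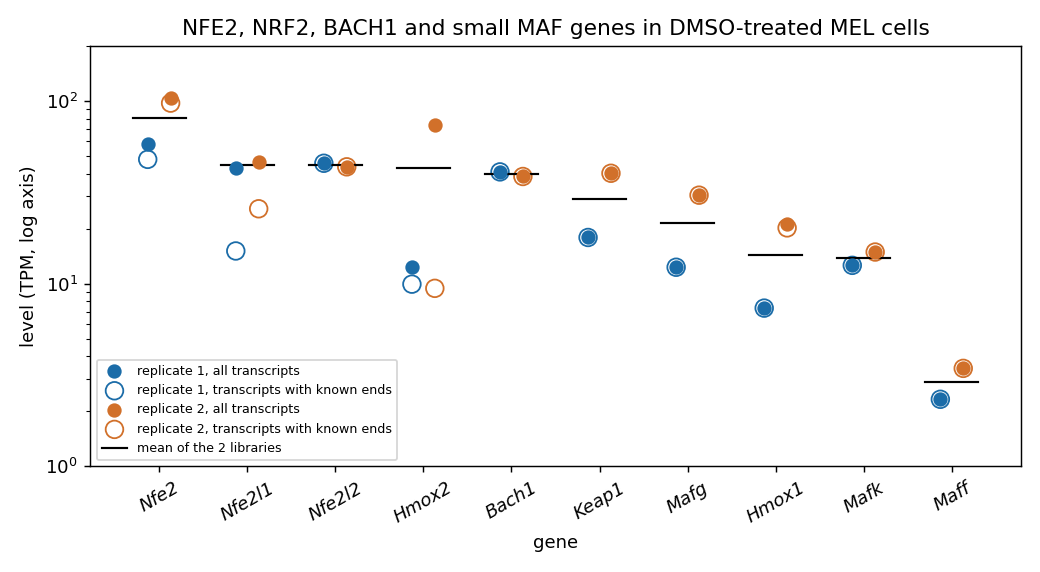
Level of each gene in TPM on a log axis, with filled points for all transcripts of the gene, open circles for transcripts whose ends are known, and a bar at the mean of the 2 libraries. Nfe2 is the highest in both libraries by filled points, Hmox2 spans 12.4 to 73.8 TPM by filled points but 9.94 to 9.43 TPM by open circles, and Maff is the lowest. The open circles of Hmox2 hold 93.0% of its reads in replicate 1 and 39.2% in replicate 2.

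Promoter sequence was examined because several of these genes encode factors that bind the antioxidant response element (ARE). RefSeq windows on GRCm38.p6, from 250 bases before to 50 bases after a start site, were matched by symbol to 8 of the 10 genes, all but Nfe2 and Hmox1, giving 16 windows. The ARE core, TGACNNNGC on either strand, was present in 4 of the 16 windows and in 4 of the 8 genes, beside 12.4% of all 32851 windows and 3781 of all 27025 genes. The genes were Nfe2l2 and the 3 small MAF genes. Their sequences are printed because they are the members with a match, each 5′ to 3′ in the direction of the gene, with the match in capitals; for Nfe2l2, Mafg and Maff the stretch before the gene's annotated exons is given, and for Mafk the match with 10 bases on each side.
Nfe2l2 upstream, chr2:75704664-75704913, minus strand: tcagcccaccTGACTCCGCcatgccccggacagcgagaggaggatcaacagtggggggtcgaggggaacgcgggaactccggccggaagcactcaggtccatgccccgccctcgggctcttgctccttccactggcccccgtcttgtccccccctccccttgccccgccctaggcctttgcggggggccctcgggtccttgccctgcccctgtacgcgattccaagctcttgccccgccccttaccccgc
Mafg upstream, chr11:120633601-120633797, minus strand: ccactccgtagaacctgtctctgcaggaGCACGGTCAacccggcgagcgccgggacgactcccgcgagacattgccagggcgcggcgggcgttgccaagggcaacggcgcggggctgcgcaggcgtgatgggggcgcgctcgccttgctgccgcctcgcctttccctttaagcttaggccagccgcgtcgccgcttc
Maff upstream, chr15:79346371-79346620, plus strand: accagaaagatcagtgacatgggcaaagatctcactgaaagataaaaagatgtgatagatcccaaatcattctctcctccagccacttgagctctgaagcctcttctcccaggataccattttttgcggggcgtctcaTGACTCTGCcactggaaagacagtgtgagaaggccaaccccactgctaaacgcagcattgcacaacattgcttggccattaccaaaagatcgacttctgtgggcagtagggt
Mafk, chr5:139791513-139791541, plus strand: gatcccggaaGCGGTGTCAgtactgggga
The match began 240 bases before the start site in Nfe2l2, 222 in Mafg, 112 in Maff and 13 in Mafk. That of Mafk lay inside the first exon of its leading transcript Mafk-201, which the GENCODE annotation begins at position 139791513. That of Maff lay upstream of the most distal RefSeq start, and the transcript Maff-202, which held most of the Maff reads, begins at position 79348064, further into the gene. A match is a description of the letters and says nothing of binding in these cells.

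Nfe2 encodes the p45 subunit of NF-E2, the hematopoietic member of the family. The gene lies on the minus strand of mm10 chr15:103248212-103258403, and its level was 58.4 TPM from 2022 estimated reads in replicate 1 and 104 TPM from 2217 in replicate 2, a mean of 81.1 ± 32.1 TPM (SD, n = 2). It was above all other members except that Hmox2 in replicate 2, at 73.8 TPM, exceeded Nfe2 in replicate 1. Among protein-coding genes it stood at the 93.0 percentile in replicate 1 and the 96.4 percentile in replicate 2. Its reads scaled by the trimmed mean of M-values (TMM, which allows for the make-up of each library) were 1.70-fold higher in replicate 2 (95% counting interval 1.60 to 1.81), under the 2-fold limit used here for a difference between single libraries. Scaled by library size alone they were 77.3 and 157 CPM (reads scaled to library size), a log2 ratio of 1.02, past that limit.

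The estimated shares of the Nfe2 transcripts were not the same in the 2 libraries, although 7 of its 10 transcripts had reads in both. Nfe2-210, which starts at position 103251516, held 46.4% of the Nfe2 TPM in replicate 1 and 21.5% in replicate 2. Nfe2-201, whose start at position 103255439 is further upstream, held 16.3% and 37.5%, and Nfe2-205, which starts at position 103251465, held 12.7% and 25.1%. These 3 transcripts are 1608, 1697 and 1605 bases long and end within a few bases of each other, and they differ in where they start. How single-end reads were divided among them is an estimate, so a change of start site cannot be read from these shares. All Nfe2 TPM in both libraries lay on transcripts annotated as protein coding.

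Nfe2l1 encodes NRF1, which is made in the endoplasmic reticulum membrane and, once cut loose, activates genes of proteasome subunits. Located on the minus strand of chr11:96817414-96829968, it measured 43.2 TPM in replicate 1 and 46.4 TPM in replicate 2, a mean of 44.8 ± 2.26 TPM (SD, n = 2), from 1727 and 1386 estimated reads. The 2 values were close, but the estimated shares of the transcripts that made them up were not. A 486-base transcript whose ends are not known, Nfe2l1-209, held 65.1% of the gene's TPM in replicate 1 and 44.8% in replicate 2, but 17.5% and 9.08% of its reads. Each of its bases and splice junctions is also in a transcript with known ends. Counted on transcripts with known ends alone, Nfe2l1 was 15.1 TPM in replicate 1 and 25.7 TPM in replicate 2, a mean of 20.4 ± 7.46 TPM (SD, n = 2), and both values then lay below those of Nfe2l2. Nfe2l1-203 held 5.88% of TPM in replicate 1 and 20.4% in replicate 2, and Nfe2l1-212 held 8.85% and 17.0%. Nfe2l1-211, named after its value was seen, held 9.01% of TPM and 24.9% of reads in replicate 1 and was listed at 0 in replicate 2.

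Nfe2l2 encodes NRF2, the activator of the oxidative stress response. On the minus strand of chr2:75675513-75704641, its level was 45.6 TPM from 2664 estimated reads in replicate 1 and 43.6 TPM from 1438 in replicate 2, a mean of 44.6 ± 1.46 TPM (SD, n = 2). The libraries nearly coincided, and this level did not rest on the choice of transcripts, since Nfe2l2-201 held 98.0% of the TPM in each library and the noncoding Nfe2l2-202 2.00% and 1.98%. Nfe2 exceeded Nfe2l2 within each library, by a ratio of 1.28 in replicate 1 and 2.38 in replicate 2. On transcripts with known ends the ratio was 1.05 and 2.23, so in replicate 1 the margin was small.

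Bach1 encodes the heme-sensing repressor. From the plus strand of chr16:87698945-87733346, it measured 40.9 TPM from 5360 estimated reads in replicate 1 and 38.6 TPM from 2640 in replicate 2, a mean of 39.8 ± 1.56 TPM (SD, n = 2). The main coding transcript Bach1-201 held 88.8% of the TPM in replicate 1 and 77.2% in replicate 2. The rest was on Bach1-203, a 2210-base transcript annotated as a retained intron, at 11.2% and 22.8% of TPM and 4.46% and 9.91% of reads. Bach2, the paralog known from B cells, was 0.380 TPM from 82.0 reads in replicate 1 and 0.140 TPM from 16.0 reads in replicate 2. The Bach1 to Bach2 ratio was 108 in replicate 1 and 276 in replicate 2, and on the posterior mean TPM of the deposited tables its mean was 43.6, so its size depends on how the low Bach2 value is estimated. Nfe2 exceeded Bach1 in each library, by a ratio of 1.43 and 2.69, or 1.17 and 2.52 on transcripts with known ends. The margin in replicate 1 was then small, and this ratio was not among those planned.

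The small MAF genes differed from each other in level. Mafg, on the minus strand of chr11:120625117-120633600, was 12.3 TPM in replicate 1 and 30.5 TPM in replicate 2, a mean of 21.4 ± 12.9 TPM (SD, n = 2). Mafk, known as the small subunit of erythroid NF-E2, lies on the plus strand of chr5:139791513-139802653. It was 12.6 TPM in replicate 1 and 14.9 TPM in replicate 2, a mean of 13.8 ± 1.58 TPM (SD, n = 2). The values of Mafg enclosed those of Mafk. Maff, a small MAF that is induced by stress and inflammatory signals in other cells, was 2.33 TPM from 105 estimated reads in replicate 1 and 3.45 TPM from 88.0 in replicate 2, a mean of 2.89 ± 0.792 TPM (SD, n = 2). Maff is on the plus strand of chr15:79346621-79359076. Both Maff values were below every other member's, at the 58.4 percentile of protein-coding genes in replicate 1 and the 59.4 percentile in replicate 2.

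Of the summed small MAF TPM, Mafg supplied 45.1% in replicate 1 and 62.5% in replicate 2, Mafk 46.3% and 30.5%, and Maff 8.54% and 7.07%. The sum was 27.3 TPM in replicate 1 and 48.8 TPM in replicate 2. The sum of Nfe2, Nfe2l1, Nfe2l2 and Bach1, which all need a small MAF to bind DNA, was 188 and 232 TPM. Small MAF transcripts stood at a ratio of 0.145 in replicate 1 and 0.210 in replicate 2 to those of the 4 partners, or 0.182 and 0.238 on transcripts with known ends. This is a ratio of RNA levels, and the proteins were not measured.

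Transcript use also differed among the small MAF genes. Over the 10 members, the transcript with most TPM was the same in both libraries for 7, and was not for Nfe2, Mafg and Hmox2. Mafk-201 held 97.4% of the Mafk TPM in replicate 1 and 98.9% in replicate 2, with Mafk-203 at 1.41% and 1.08%. Maff-202 held 100% and 88.6% of the Maff TPM, and Maff-201 was listed at 0 in replicate 1 and held 11.4% in replicate 2. Mafg was divided among several coding transcripts. The 4923-base Mafg-201 held 52.9% of TPM in replicate 1 and 24.0% in replicate 2, but 87.2% and 64.0% of reads. Mafg-203, of 840 bases, was listed at 0 in replicate 1 and held 30.8% of TPM in replicate 2. Mafg-204, of 1104 bases, held 16.5% and 30.8%, and Mafg-202, of 732 bases, held 27.9% and 11.1%. In estimated reads Mafg was 882 and 765, and its read-based log2 ratio of replicate 2 over replicate 1 was 0.43, whereas that of TPM (pseudocount 0.1) was 1.30.

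**Figure D2:**
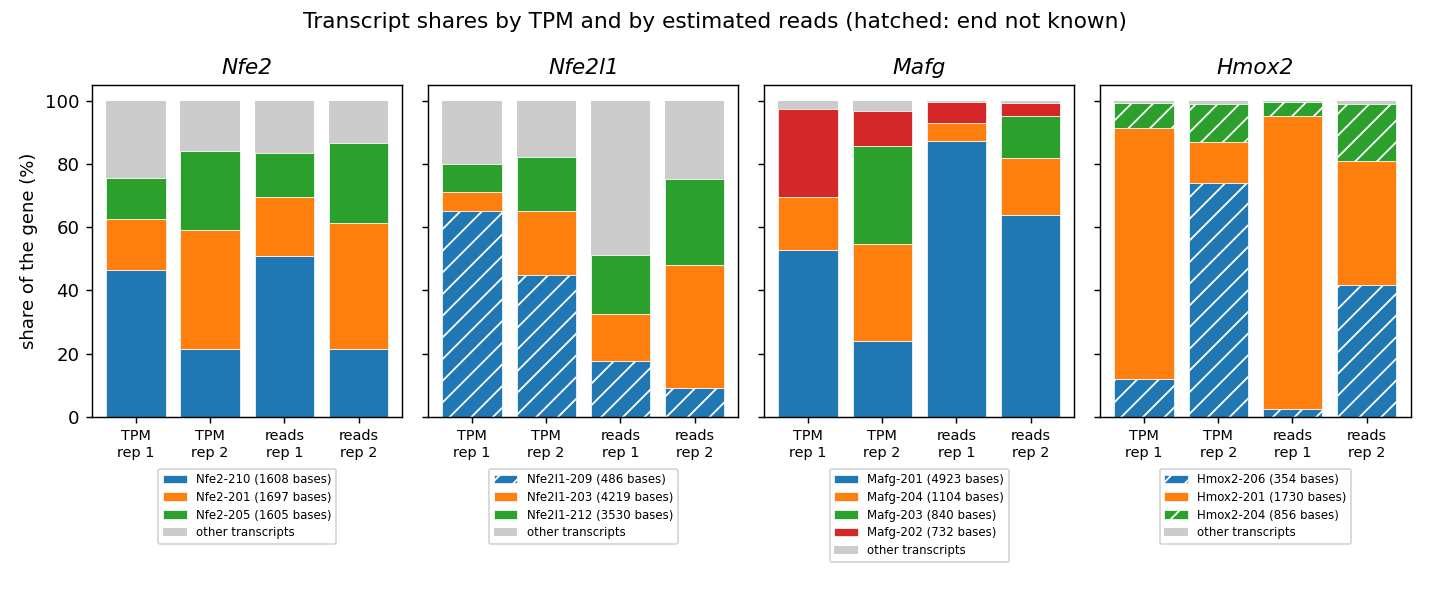
Share of each gene's TPM (left pair of bars) and estimated reads (right pair) on each named transcript of Nfe2, Nfe2l1, Mafg and Hmox2 in replicates 1 and 2, in percent, with hatching for transcripts whose ends are not known. Hmox2-206 is 12.0% of Hmox2 TPM in replicate 1 and 74.0% in replicate 2, and Nfe2l1-209 takes 65.1% of Nfe2l1 TPM but 17.5% of its reads in replicate 1.

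Keap1 encodes the adaptor that presents NRF2 to a CUL3 ubiquitin ligase. It lies on the minus strand of chr9:21229730-21239361. It was 18.0 TPM from 1362 estimated reads in replicate 1 and 40.2 TPM from 1755 in replicate 2, a mean of 29.1 ± 15.7 TPM (SD, n = 2). Nfe2l2 exceeded Keap1 by a ratio of 2.54 in replicate 1 and 1.08 in replicate 2, and the 2 genes were nearly level in replicate 2. This ratio was also not among those planned. Keap1-205 was the leading transcript in both libraries, with 68.5% and 79.6% of TPM, followed by Keap1-202 with 27.8% and 17.6%.

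Hmox1 encodes the inducible heme oxygenase, the classic target that BACH1 represses and NRF2 activates. It lies on the plus strand of chr8:75093621-75100589. It was 7.35 TPM from 278 estimated reads in replicate 1 and 21.2 TPM from 441 in replicate 2, a mean of 14.3 ± 9.77 TPM (SD, n = 2). Hmox1-201 held 100% and 95.3% of it, and a transcript not matched to the later annotation held the other 4.68% in replicate 2. Of the members, Hmox1 differed most between the libraries in TMM-scaled reads, 2.46-fold (95% counting interval 2.12 to 2.87), or 1.30 on the log2 scale. By library size alone it was 10.6 and 31.2 CPM, a log2 ratio of 1.55. It was the 1 member past the 2-fold limit with TMM scaling, and with the GC trend described below removed its log2 ratio was 0.92, under that limit.

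Hmox2 encodes the constitutive heme oxygenase. It lies on the plus strand of chr16:4726361-4766742. It was 12.4 TPM in replicate 1 and 73.8 TPM in replicate 2, a mean of 43.1 ± 43.4 TPM (SD, n = 2), the widest spread among the 10 genes. It had 436 and 555 estimated reads, which is 16.7 and 39.3 CPM by library size alone, and its TMM-scaled reads were 1.97-fold higher in replicate 2, against 5.95-fold for TPM. Most of the difference in TPM was on Hmox2-206, a 354-base transcript of 2 exons whose ends are not known. It was 1.49 TPM from 11.2 reads in replicate 1 and 54.6 TPM from 232 reads in replicate 2. All but 2 of its bases are shared with transcripts of known ends, while its 1 splice junction is not. The full-length coding transcript Hmox2-201, of 1730 bases, was nearly the same in both libraries, at 9.87 TPM and 9.43 TPM. Hmox2-204, of 856 bases and also without known ends, held 7.92% of the gene's TPM in replicate 1 and 12.2% in replicate 2. On transcripts with known ends the gene was 9.94 TPM in replicate 1 and 9.43 TPM in replicate 2, a mean of 9.68 ± 0.361 TPM (SD, n = 2). These transcripts held 93.0% of its estimated reads in replicate 1 and 39.2% in replicate 2. The small SD therefore leaves out most of the reads in replicate 2.

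In TPM, the order of the 2 heme oxygenase genes depended on which transcripts were counted. By TPM of all transcripts Hmox2 exceeded Hmox1 by a ratio of 1.69 in replicate 1 and 3.49 in replicate 2. On transcripts with known ends the ratio was 1.35 in replicate 1 and 0.467 in replicate 2, with a mean of 0.910. Hmox1 was then the higher in replicate 2. That comparison left out the reads of the other transcripts, and 39.2% of Hmox2 reads in replicate 2 remained. In estimated reads over all transcripts, Hmox2 exceeded Hmox1 in both libraries, at 436 against 278 and 555 against 441. Of the rest of the heme breakdown chain, Por, the reductase that supplies electrons to heme oxygenase, was 25.9 ± 8.35 TPM (SD, n = 2). Blvrb, a biliverdin reductase, was 73.5 ± 37.6 TPM, and Blvra, the main biliverdin reductase of adult tissues, was 4.34 ± 0.495 TPM.

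The difference between the libraries was measured over all genes to give the error of these levels. Estimated reads summed to 26149725 in replicate 1 and 14149299 in replicate 2, so that 3 reads, the limit allowed by a count of 0, correspond to 0.115 and 0.212 CPM (counting error only). Among the 13509 genes averaging 10 reads or more, 15.0% were at least 2-fold higher in replicate 2 and 16.5% in replicate 1, on TMM-scaled counts. Scaled by library size alone these shares were 22.4% and 11.6%. Of the 10 members, 1 was at least 2-fold higher in replicate 2, Hmox1, and 0 in replicate 1, too few genes to set apart from these shares. Scaled by library size alone, 4 members, Nfe2, Keap1, Hmox1 and Hmox2, were at least 2-fold higher in replicate 2, beside 22.4% of all genes. With TMM scaling Keap1, at a fold that rounds to 2.00, and Hmox2, at 1.97, lay just under the limit. The log2 ratio of replicate 2 over replicate 1 had a median of 0.40 over the members and 0.01 over all genes, and 8 members were higher in replicate 2 and 2, Nfe2l2 and Bach1, in replicate 1.

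The ratio between the libraries moved with the GC content of the transcripts across the table, with a Spearman rho of 0.780 over 8893 protein-coding genes (a description across genes, which are not independent replicates). Nfe2l2 and Bach1, the members that were lower in replicate 2, had the lowest GC contents of the 10, 46.7% and 47.2%, against a median of 50.2% over those genes. Mafg and Keap1 had the highest, 58.9% and 58.7%. With the GC trend removed, the direction changed for Nfe2l1 (from 0.32 to -0.15), Nfe2l2 (from -0.25 to 0.19), Mafg (from 0.43 to -0.50), Mafk (from 0.05 to -0.57) and Maff (from 0.38 to -0.37). The members then divided into 5 higher and 5 lower in replicate 2, and Keap1 at 0.08, Hmox1 at 0.92, Nfe2 at 0.41 and Hmox2 at 0.37 stayed higher in replicate 2. Whether GC content, or what moves with it, accounts for the differences was not tested.

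**Figure D3:**
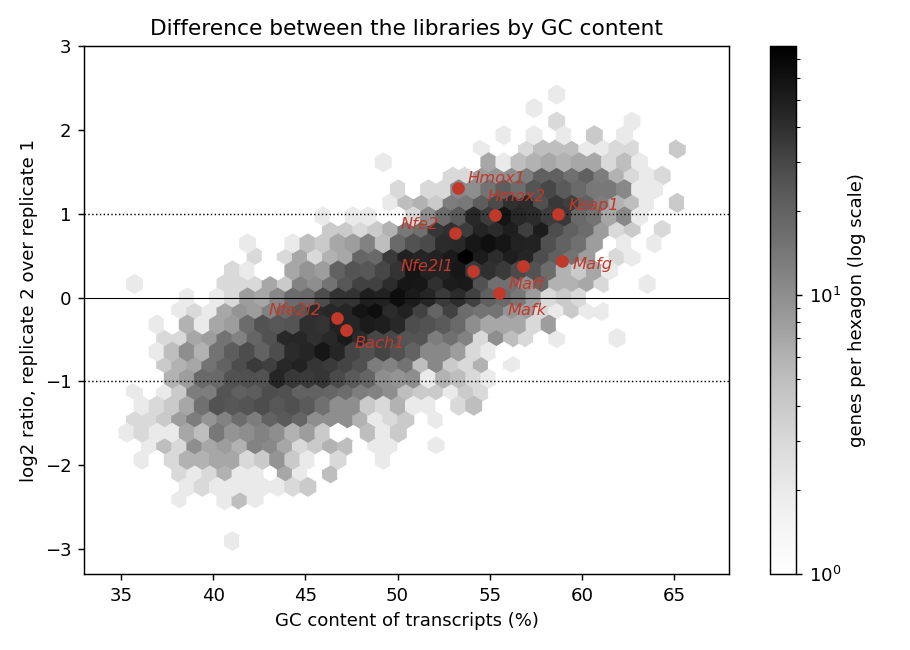
Log2 ratio of replicate 2 over replicate 1 (TMM-scaled reads) against the GC content of transcripts in percent, as hexagons shaded by the number of genes over 8893 protein-coding genes, with the 10 members as labelled red points and dotted lines at 2-fold. Nfe2l2 and Bach1 lie below 0, and Hmox1 lies above the upper dotted line. With the GC trend removed, the members' log2 ratios ranged from -0.57 (Mafk) to 0.92 (Hmox1).

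The near relatives of these factors were at or close to 0. None of the 5 relatives listed, Mafa, Maf, Nrl, Bach2 and Nfe2l3, reached 1 TPM in both libraries, and their median mean level was 0.260 TPM. Mafa was the highest, at 0.240 TPM in replicate 1 and 1.48 TPM in replicate 2, and Maf, a large MAF with an activation domain, was 0.800 TPM and 0.370 TPM. Nrl and Nfe2l3 had at most 6 reads in replicate 1 and 0 in replicate 2.

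Genes that bear on the stability or processing of the factors were all present, 15 of 15 at 1 TPM or more in both libraries. Their median mean level was 33.7 TPM. Of all protein-coding genes, 45.5% reached 1 TPM in both libraries, the share to set beside this and each later list count. Sqstm1, the p62 autophagy receptor that sequesters KEAP1, was the highest at 337 ± 114 TPM (SD, n = 2). Vcp, the segregase that pulls NRF1 from the membrane, was 137 ± 20.8 TPM. Cul3, the scaffold of the KEAP1 ligase, was 220 TPM in replicate 1 and 39.5 TPM in replicate 2, the reverse direction to Keap1. The GC content was 39.8% for Cul3 and 58.7% for Keap1, far apart on the GC trend described above. Whether that accounts for their opposite directions was not tested. Cul1, the scaffold of the other ligase that targets NRF2, was 60.5 ± 2.11 TPM. The lowest were Fbxo22, a ligase adaptor for BACH1, at 5.58 ± 1.34 TPM and Ngly1, the enzyme that removes sugars from NRF1, at 4.65 ± 0.537 TPM.

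Genes known as NRF2 targets were unevenly represented. Of 25 listed enzymes and transporters, 20 reached 1 TPM in both libraries, with a median mean level of 12.6 TPM. The highest were Tkt, a transketolase of the pentose phosphate pathway, at 500 ± 297 TPM (SD, n = 2), and Gclm, the modifier subunit of the rate-limiting enzyme of glutathione synthesis, at 169 ± 33.5 TPM. Txn1 (thioredoxin) was 156 ± 47.4 TPM and Cbr1 (carbonyl reductase) 122 ± 81.1 TPM. The 5 that did not reach the limit were Gsta4, Slc7a11, Osgin1, Aox1 and Mgst1. Aox1 was 0.550 TPM in replicate 1 and 0.140 TPM in replicate 2, and Mgst1 had 0 reads in both. Nqo1, the quinone reductase most often used as an NRF2 readout and named here after its value was seen, was 1.94 TPM in replicate 1 and 2.37 TPM in replicate 2.

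The target genes that BACH1 and NRF2 share in iron and heme handling were higher, with 9 of 10 at 1 TPM or more in both libraries and a median mean level of 43.3 TPM. The ferritin chains led, with Fth1 at 2511 ± 643 TPM (SD, n = 2) and Ftl1 at 783 ± 482 TPM. They were followed by Fech, the enzyme that inserts iron into protoporphyrin to form heme, at 280 ± 116 TPM, and Blvrb. Blvra was second lowest, and Flvcr2, a heme and choline transporter, was 0.0700 TPM in replicate 1 and 0 in replicate 2.

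The genes at which NF-E2 acts in red cell precursors were the most abundant of the groups, 8 of 8, with a median mean level of 1807 TPM. Hba-a2 was 6026 TPM in replicate 1 and 39530 TPM in replicate 2, Hba-a1 9832 and 18523 TPM, and Hbb-bs 8546 and 12945 TPM. Because the alpha globin copies share almost their whole sequence, how reads were divided between Hba-a1 and Hba-a2 is uncertain. Alas2, the erythroid enzyme that begins heme synthesis, was 1870 ± 1146 TPM (SD, n = 2). The lowest were Fech and Urod, at 126 ± 54.8 TPM. Of the NF-E2 targets known from megakaryocytes, 4 of 6 reached 1 TPM in both libraries. Itga2b, the platelet integrin that early progenitors also express, was 112 ± 52.5 TPM, Pf4 16.9 ± 4.50 TPM, Tbxas1 2.46 ± 1.51 TPM and Tubb1, the platelet tubulin, 1.12 ± 0.0778 TPM, while Rab27b and Ppbp were below 1 TPM.

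All 31 proteasome subunit genes, the targets known for NFE2L1, were at 1 TPM or more in both libraries, with a median mean level of 62.2 TPM. Psmc3 was 727 ± 157 TPM (SD, n = 2), Psmd4 261 ± 53.2 TPM, Psma7 186 ± 14.5 TPM and Psmc1 126 ± 52.9 TPM. Psmd13, at 31.6 ± 6.22 TPM, and Psmb5, at 20.4 ± 12.4 TPM, were the lowest. These counts describe how much of each target list was present and do not connect a target's level to a factor.

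**Figure D4:**
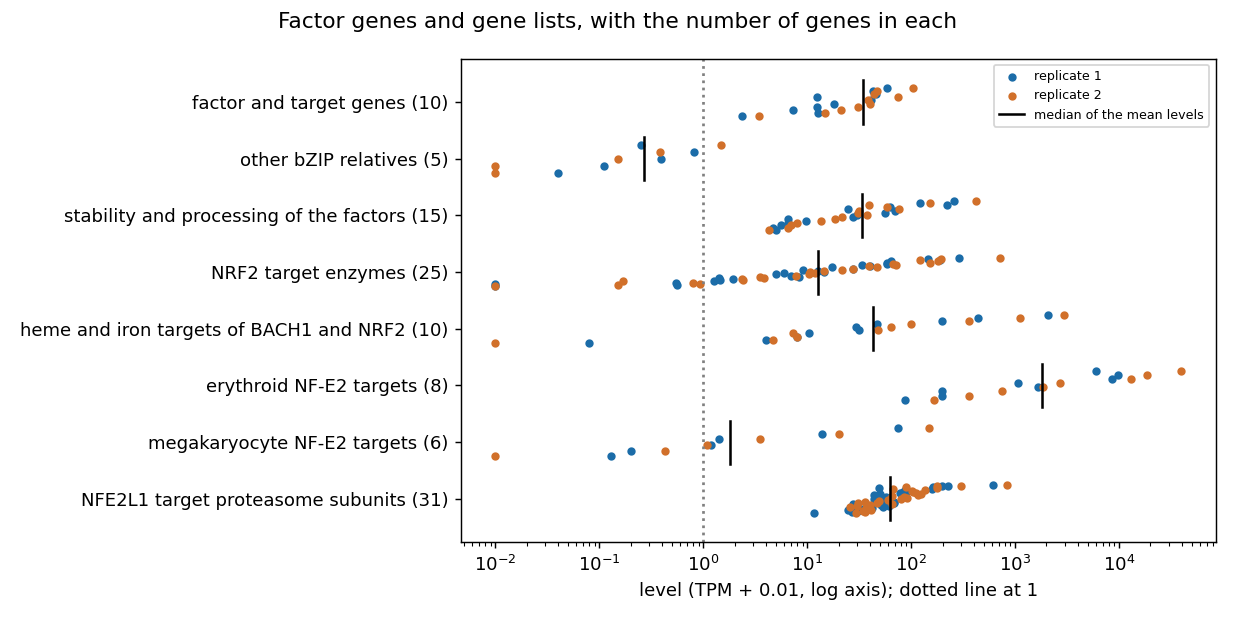
Levels in TPM plus 0.01 on a log axis of the 10 factor and target genes and of each gene list, by library, with a bar at the median of the mean levels and a dotted line at 1. Erythroid NF-E2 targets lie highest with a median of 1807 TPM, and the other bZIP relatives lie lowest with a median of 0.260 TPM.

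The same motif search was run over the target genes. The ARE core was present in at least 1 window of 8 of 21 genes of the NRF2 list (8 of 28 windows), 2 of 7 heme and iron target genes, 4 of 25 proteasome genes, 1 of 7 erythroid and 1 of 5 megakaryocyte NF-E2 target genes, beside 3781 of all 27025 genes. The longer NF-E2 core, GCTGAGTCA on either strand, was in 0.454% of all windows and in none of the members' windows. Its reverse, TGACTCAGC, is itself an ARE core match, so the 2 searches overlap. In the NRF2 list the NF-E2 core was present in Prdx1 and Me1, 2 of 21 genes, beside 136 of all 27025 genes. It was present in 0 of 7 erythroid and 0 of 5 megakaryocyte NF-E2 target genes. It was also in 0 of 25 proteasome genes and 0 of 7 heme and iron target genes. The motif AGATAA, a site read by erythroid zinc finger factors and searched on both strands, was in 11.2% of all windows and in 2 of the 16 windows of the members, those of Keap1 and Maff. Pieces of 29 bases around the ARE core are printed for 5 target genes to set beside the members, with the match in capitals and chosen after the search.
Prdx1, chr4:116685456-116685484, plus strand: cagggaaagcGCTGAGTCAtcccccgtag
Me1, chr9:86695902-86695930, minus strand: gatgccgccgTGACTCAGCgcttctcgcg
Gclm, chr3:122245413-122245441, plus strand: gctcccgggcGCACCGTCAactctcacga
Txnrd1, chr10:82859104-82859132, plus strand: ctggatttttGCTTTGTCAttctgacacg
Hbb-bt, chr7:103813922-103813950, minus strand: ataaagctgaGCAGGGTCAgttgcttctt
The first pair, Prdx1 (peroxiredoxin) and Me1 (malic enzyme), carry the NF-E2 core as well as the ARE core. Their matches began 133 and 6 bases before the start site, the Gclm match 134, that of Txnrd1 (thioredoxin reductase) 92 and that of Hbb-bt, an adult beta globin gene, 17. The RNA levels of target genes with a match ranged widely. Gclm was 169 ± 33.5 TPM (SD, n = 2), Prdx1 62.6 ± 6.36 TPM, Txnrd1 13.5 ± 1.31 TPM and Me1 5.89 ± 3.44 TPM, and Mgst1, whose window also holds the ARE core, had 0 reads. Tkt, the highest of the list, is not among the 8 genes with a match.

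**Figure D5:**
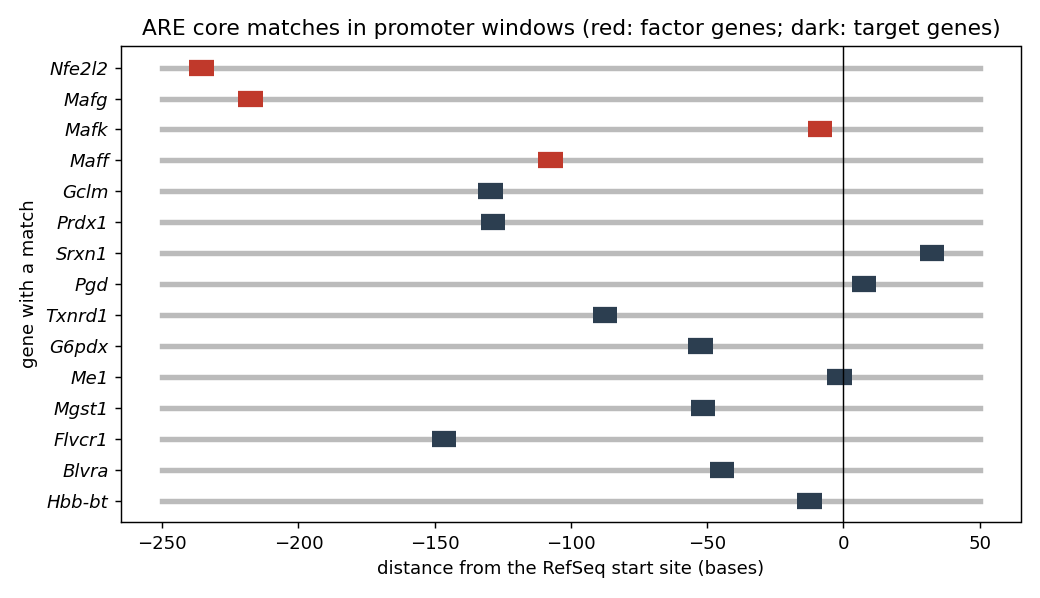
Position of each ARE core match relative to the RefSeq start site, in bases, for the windows of the factor genes (red) and of NRF2, heme, iron and erythroid target genes (dark) that hold one, with the window in grey. The matches of Nfe2l2 and Mafg begin 240 and 222 bases upstream, and those of Mafk, Me1 and Hbb-bt begin 13, 6 and 17 bases upstream.

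The labelled cell type was checked against markers. All 8 erythroid markers were present in both libraries, from Epor, the erythropoietin receptor, at 85.6 ± 72.0 TPM (SD, n = 2) to Hba-a1. Markers of granulocytes and macrophages reached 1 TPM in both libraries in 2 of 11 cases (Prtn3 and Cd68), with 4 at 0 reads (Elane, S100a8, S100a9 and Ly6g) and sums of 10.7 and 29.4 TPM. Those of lymphocytes did so in 1 of 7 cases (Lck), with Pax5 and Rag1 at 0 reads and sums of 5.87 and 4.97 TPM. Megakaryocyte markers did so in 5 of 8, with Gp6 and Treml1 at 0 reads and sums of 96.6 and 191 TPM, most of it Itga2b.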

How the data were processed

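Gene and transcript tables from 2 libraries of DMSO-treated MEL cells were used. The authors made the tables from their reads, and the deposited columns are expected counts, TPM, posterior mean TPM and the percent of a gene on each transcript, per the file headers. The deposited bounds of TPM (a signal column, of unstated level) were not printed. The tables use mm10 and GENCODE M4 per the labels of the files. Aligner and quantifier: not given in the sources used here. Ensembl identifiers were matched without version to GENCODE M21 (same assembly), which named 42462 of 43346 genes and 50 of the members' 51 transcripts. The 26345 rows with other identifiers held 0.0296% and 0.0465% of reads. They stayed out of the library sizes behind the log2 ratios but were counted in the summed reads and the CPM values.

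Levels are the deposited TPM, given with the mean and SD of the 2 libraries. With 1 group there is no contrast and no p-value. Ratios between libraries used rounded expected counts with edgeR 4.0.16 TMM factors (0.9165 and 1.091) and a prior count of 1, over genes averaging 10 counts or more, and counting intervals are at 95%. The scaling was tried on simulated counts that held no GC trend, and the GC step on simulated ratios with a known slope. Neither gives the error of these libraries. Transcripts with known ends exclude those that GENCODE tags as lacking a start or end and 1 Hmox1 transcript without a match. Reads of the excluded transcripts were left out and not reassigned. The GC trend is a lowess curve (span 0.3) over genes with at least 100 counts. Promoter windows came from RefSeq, and protein sequences planned for comparison were not analysed here. Of the list of other bZIP relatives, 1 gene is not reported here.

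The members and all lists were chosen with earlier results of these data known. All 10 members are named; of each list the 4 highest and 2 lowest genes by mean TPM and any with 0 reads; of each member the 2 leading transcripts and any with at least 10% of the gene. Alternatives were other scalings, prior counts, pseudocounts and detection limits, posterior mean TPM, removal of the GC trend and leaving out either library.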

Additional observations from a re-analysis of the deposited data

How the results depend on the processing

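The design of 1 group of 2 libraries gives levels and their spread but no test, and the second library has fewer reads. The number of members detected in both libraries was 10 at limits of 0.5 and 1 TPM and on posterior mean TPM, and 9 at 5 TPM, where Maff was left out. Mean levels on the posterior mean TPM were 42.4 for Nfe2l1, 41.8 for Nfe2l2 and 37.4 for Bach1, each a shift larger than the small SD of the gene, and on transcripts with known ends, an alternative added after seeing the data, Nfe2l1 was 20.4 TPM. The number of members at least 2-fold higher in replicate 2 was 1, beside 15.0% of all genes. It was 4 with library size alone (22.4% of all genes), 4 with TPM at a pseudocount of 0.1 (21.3%) and 4 at a pseudocount of 1 (14.8%). It was 2 with a prior count of 0.5 (15.1%) and 0 with the GC trend removed (7.58%). Library size alone moved the median log2 ratio of all genes from 0.01 to 0.25, and TPM moved it to 0.21 or 0.16. The Hmox2 to Hmox1 ratio was 0.910 on transcripts with known ends, which held 39.2% of Hmox2 reads in replicate 2. The Bach1 to Bach2 ratio was 43.6 on posterior mean TPM, and the cause of that shift was not tested. No paired analysis was possible because the libraries form 1 group.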
